A study of Glycine max with 6 samples.

Results

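In leaves of flowering soybean (Glycine max, cv. Williams 82), 3 genes of cellular protection stood far higher after water had been withheld. They are Glyma01g31300, similar to the Arabidopsis ferritin gene FER1, Glyma01g42840, similar to the glutathione peroxidase gene GPX6, and Glyma01g33070, similar to the homogentisate phytyltransferase gene HPT1. These 3 of the 66184 genes on the array were taken by their identifiers, and they had been selected on their measured rise between drought-stressed and well-watered leaves on these same arrays. That rise is therefore given for them as a description, without a test. The third trifoliate leaf, counted from the shoot, was profiled at the R2 stage (full bloom) on Affymetrix Soybean Gene ST arrays. The drought group held plants 11, 12 and 13, which began to flower and then went 5 days without water, reaching a soil moisture of 5%. The well-watered group held plants 1, 3 and 4, which were watered as usual. Plants grew 3 to a pot, and the sources do not say how many pots each treatment had. Pot and treatment therefore cannot be told apart, and p-values reflect the spread between plants that may have grown together.

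The 3 gene families guard against oxidative damage at different points. Ferritin is a hollow protein shell that in plants lies mainly in plastids and stores iron, which keeps free iron from reacting with hydrogen peroxide to form hydroxyl radicals. Glutathione peroxidases reduce hydrogen peroxide and lipid hydroperoxides, and the plant enzymes mostly take their electrons from thioredoxin rather than from glutathione. Homogentisate phytyltransferase joins homogentisate to a phytyl chain in the plastid envelope, the first committed step of tocopherol (vitamin E) synthesis, and tocopherol protects membrane lipids from peroxidation. The match of Glyma01g33070 to HPT1 is by similarity alone. Legumes also hold prenyltransferases of the same family that act on flavonoids, and the files do not show which substrate this gene product uses.

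Values are given as log2 expression after the probe set's own median over the 6 arrays was taken off. A value of 0 thus lies midway between the third and the fourth highest array, and levels of different genes cannot be compared. For genes whose groups do not overlap, this centring also makes the lowest drought value and the highest well-watered value mirror images around 0. No other probe set had the same 6 values as any of the 3. The medians of the 6 arrays lay between -0.107 and 0.132, which is small beside the changes of these genes. In whole leaves, fewer cells of a type and less RNA per cell cannot be told apart.

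The ferritin gene Glyma01g31300 had the largest change of the 3. Its values were 2.36, 1.75 and 2.26 in drought plants 11, 12 and 13, against -1.75, -2.15 and -2.78 in well-watered plants 1, 3 and 4. The groups lay far apart, with drought plant 12 the lowest of its group and well-watered plant 4 the lowest of all. The mean was 2.13 ± 0.33 in drought leaves and -2.23 ± 0.52 in well-watered leaves (SD, n = 3 each). The log2 change was 4.35 ± 0.27 (SE of the limma fit), or 20.4-fold. Between single plants the log2 difference ran from 3.50 (drought plant 12 minus well-watered plant 1) to 5.14 (drought plant 11 minus well-watered plant 4), that is, 11.3-fold to 35.4-fold. The spread among well-watered plants, with a range of 1.03, was wider than the 0.61 among drought plants.

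The glutathione peroxidase gene Glyma01g42840 had the lowest pooled SD of the 3, at 0.34, although it had the smallest spread in neither group taken alone. Its values were 1.48, 1.50 and 2.09 in drought plants 11, 12 and 13, against -1.58, -1.48 and -2.08 in well-watered plants 1, 3 and 4. In each group a pair of plants stood close together, while drought plant 13 was higher and well-watered plant 4 was lower than the others of its group. The mean was 1.69 ± 0.35 in drought leaves and -1.71 ± 0.32 in well-watered leaves (SD, n = 3 each). The log2 change was 3.40 ± 0.23 (SE), or 10.6-fold, and the 9 differences between single plants ran from 2.95 to 4.18, or 7.74-fold to 18.1-fold.

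The phytyltransferase-like gene Glyma01g33070 was high in all drought plants, but by unequal amounts. Its values were 1.61, 0.998 and 2.45 in drought plants 11, 12 and 13, against -1.39, -1.22 and -0.998 in well-watered plants 1, 3 and 4. Drought plant 13 stood 1.46 above drought plant 12, whereas the well-watered plants spanned only 0.40. The mean was 1.69 ± 0.73 in drought leaves and -1.20 ± 0.20 in well-watered leaves (SD, n = 3 each). The log2 change was 2.89 ± 0.31 (SE), or 7.43-fold. The differences between single plants ran from 2.00 to 3.85, or 3.99-fold to 14.4-fold, so that the smallest was near 4-fold. Without drought plant 13 the log2 change was 2.51, and without drought plant 12 it was 3.24.

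**Figure D1:**
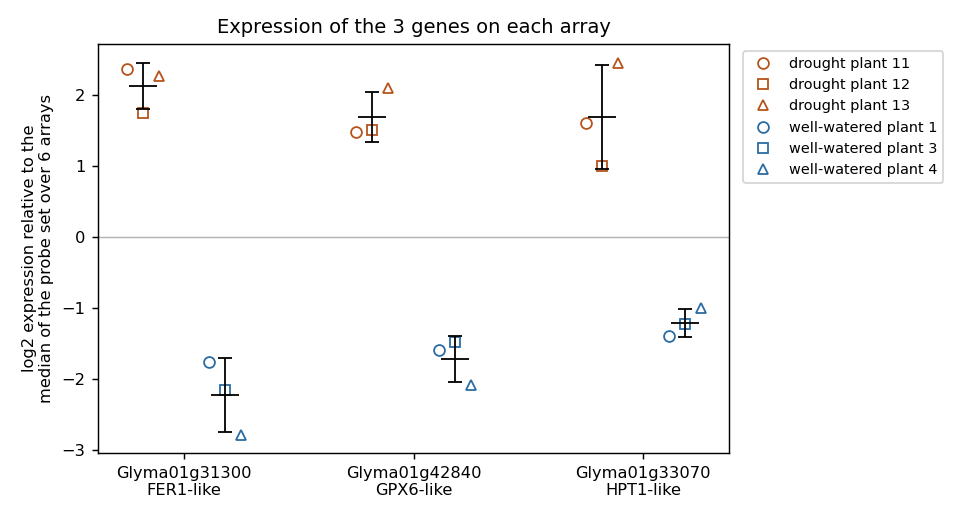
Log2 expression relative to the probe set median (vertical axis) for the 3 genes, with drought plants on the left and well-watered plants on the right of each gene. Points are single arrays, horizontal bars are group means and error bars are SD (n = 3). Every drought plant lies above every well-watered plant, and the drought values of Glyma01g33070 span 1.46.

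Groups that do not overlap were common on these arrays. All 3 genes had every drought value above every well-watered value, which the way they were chosen leads to, and so did 18.6% of all probe sets, with 17.4% the other way round and 36% in either direction. The gap between the lowest drought plant and the highest well-watered plant was 3.50 for the ferritin gene, 2.95 for the peroxidase gene and 2.00 for the phytyltransferase-like gene. A larger gap was found in 0.0952%, 0.201% and 0.619% of all probe sets, in the same order. By log2 change the ferritin gene ranked 46 among all probe sets, the peroxidase gene 161 and the phytyltransferase-like gene 270. Among the 3138 genes of chromosome 1 on the array, which holds all 3, their ranks were 2, 5 and 9. Large gaps and high ranks are likewise what the choice of the 3 genes leads to. These shares and ranks are descriptions and not p-values. Their spread within groups was above the ordinary, since a smaller pooled SD was found in 92.2% of probe sets for the ferritin gene (0.44), 77.9% for the peroxidase gene (0.34) and 97.2% for the phytyltransferase-like gene (0.54).

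**Figure D2:**
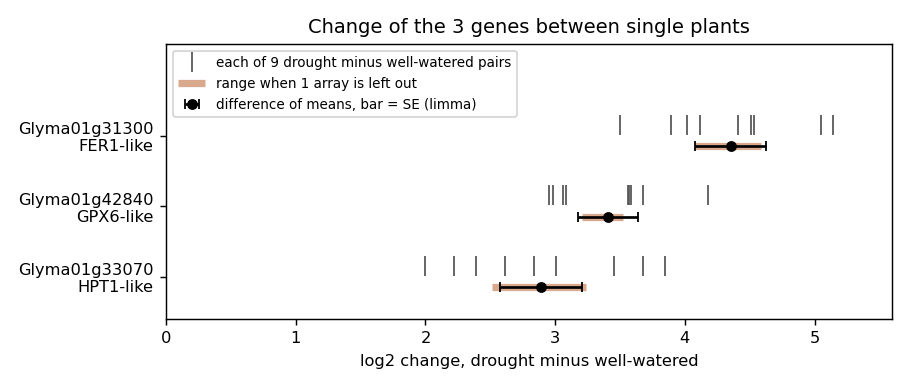
Log2 change, drought minus well-watered (horizontal axis), of the 3 genes. Grey ticks are the 9 differences between single plants, points are the differences of the group means with their SE from limma, and the bands are the ranges when 1 array is left out, which lie between 4.07 and 4.59 for Glyma01g31300, 3.20 and 3.52 for Glyma01g42840 and 2.51 and 3.24 for Glyma01g33070.

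The 3 changes can be set side by side on each array, as a description, since the genes were selected on these values. On each array the value of the peroxidase gene was subtracted from that of the ferritin gene, which compares their changes and not their levels. This difference was between 0.17 and 0.89 in drought plants and between -0.70 and -0.17 in well-watered plants, and the log2 change of the ferritin gene was 0.95 larger, or 1.93-fold. The ferritin gene minus the phytyltransferase-like gene gave -0.19 to 0.75 in drought plants and -1.78 to -0.36 in well-watered plants, a difference in change of 1.46 or 2.75-fold. In neither pair did the drought and well-watered differences overlap. The peroxidase gene minus the phytyltransferase-like gene gave -0.36 to 0.51 in drought plants and -1.08 to -0.19 in well-watered plants. These overlapped, and the 2 smaller changes differed by 0.51 or 1.43-fold. None of these differences was tested.

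Within a group the 3 genes did not keep 1 order of plants. Well-watered plant 4 had the lowest value of its group for the ferritin gene, 0.56 below the group mean, and for the peroxidase gene, 0.37 below it, yet the highest for the phytyltransferase-like gene, 0.21 above it. Drought plant 12 was the lowest of its group for the ferritin gene and for the phytyltransferase-like gene, where it lay 0.38 and 0.69 below the mean. Drought plant 13 was the highest for the peroxidase gene, by 0.40, and for the phytyltransferase-like gene, by 0.77. Over all 6 arrays Pearson's r was 0.99 between the ferritin and peroxidase genes, 0.97 between the peroxidase and phytyltransferase-like genes and 0.95 between the ferritin and phytyltransferase-like genes, which mostly carries the treatment difference they were chosen for. After each group's mean was subtracted, r was 0.62, 0.48 and 0.15 in the same order, as a description over 6 arrays that share their groups.

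Related genes of chromosome 1 had smaller changes than the 3 genes, which had been selected on their rise. There were 6 lists with 47 genes in all, taken from the descriptions of the study, which at hand cover chromosome 1 alone, so no list is a whole family. In drought leaves 3 of the 47 were called higher and 2 were called lower, where a call needed at least a 2-fold change and, in limma, a Benjamini-Hochberg p under 0.05 when adjusted across the 66184 probe sets. Over all probe sets 4.98% were called higher and 4.63% lower, and over the chromosome 1 genes 4.24% and 4.46%. The 10.6% of list genes called in either direction was close to the 9.61% of all probe sets. The median log2 change of the 47 genes was -0.05, beside 0.02 over all probe sets, and their changes ran from -1.38 to 1.75. The smallest change of the 3 genes described above was thus larger than that of any of them, which the way the 3 were chosen leads to. Without well-watered plant 1 only 1 of the 47 was called higher.

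Among 8 genes for iron and other metals, 1 was called higher and 1 lower, with a median log2 change of -0.20. The ferredoxin family gene Glyma01g44850, whose kind of protein carries electrons on an iron-sulphur cluster in plastids, had -0.48, -0.81 and -1.05 in drought plants 11, 12 and 13, against 0.48, 0.53 and 0.52 in well-watered plants 1, 3 and 4. The groups did not overlap, and the log2 change was -1.30 ± 0.18 (SE; limma, adjusted p = 0.000802). Glyma01g42790, similar to HMA5, a copper-transporting ATPase of Arabidopsis, had 0.49, 0.48 and 0.42 in drought plants, against -0.93, -0.42 and -0.47 in well-watered plants. It rose by 1.07 ± 0.18 (limma, adjusted p = 0.00229), but well-watered plant 1 was lower than the others, and without it the log2 change was 0.91 and the gene was not called. The iron transporter-related genes Glyma01g31940 and Glyma01g31970 had log2 changes of -0.36 ± 0.24 and -0.26 ± 0.28. Glyma01g39790, similar to NRAMP3, which releases iron and manganese from the vacuole in Arabidopsis, had -0.20 ± 0.15, and the aconitase-like gene Glyma01g36750, whose product is an iron-sulphur enzyme, had -0.15 ± 0.19. None of these 4 was called.

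The 11 genes of ascorbate and thiol redox chemistry include ascorbate peroxidase-like, thioredoxin and glutaredoxin genes and a gene described only as an unknown protein. They gave no call (limma), against 4 at an unadjusted p under 0.05, and none with the methods' t-test. Their median log2 change was -0.05, and 2 of them passed the adjusted p below 2-fold. The largest change was that of the thioredoxin family gene Glyma01g00570, with -0.65 ± 0.18 (SE; limma, adjusted p = 0.0272). Its values were -0.14, -0.55 and -0.51 in drought plants, against 0.35, 0.14 and 0.26 in well-watered plants, so the groups stood apart by little. Glyma01g36940, similar to the ascorbate peroxidase APX3, which reduces hydrogen peroxide at peroxisomal membranes, had a log2 change of -0.16 ± 0.19. Glyma01g36930, similar to APX5, had 0.06 ± 0.19. The log2 change of the glutathione peroxidase gene Glyma01g42840, 3.40, is set beside these 2 as a description.

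Of 6 glutathione S-transferase genes, whose products join glutathione to reactive compounds, 1 was called higher and none lower. It was Glyma01g04690, similar to GSTU18, with 0.25, 0.65 and 0.49 in drought plants 11, 12 and 13, against -0.90, -0.51 and -0.25 in well-watered plants 1, 3 and 4. The call, at a log2 change of 1.02 ± 0.21 (SE; limma, adjusted p = 0.00583), was near the 2-fold limit. With well-watered plant 1 left out it was lost, at 0.85, as it was with drought plant 12 left out, at 0.93, and the methods' t-test did not give it. Glyma01g04710, also similar to GSTU18, had the opposite sign, with -0.82 ± 0.29, and was not called, although it was called lower without well-watered plant 1. Among 10 secretory peroxidase genes, which act mainly in the cell wall, none was called higher and 1 was called lower. This was Glyma01g36780, similar to the peroxidase gene PER64, with -0.54, -0.48 and -0.83 in drought plants, against 1.17, 0.48 and 0.64 in well-watered plants, and it fell by 1.38 ± 0.21 (limma, adjusted p = 0.00127).

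The 4 plastid prenyl lipid and pigment genes at hand gave no call either (limma), with 2 at an unadjusted p under 0.05 and none called by the methods' t-test. Glyma01g07560, similar to the homogentisate solanesyltransferase HST, uses homogentisate as HPT1 does but leads to plastoquinone. Its log2 change was -0.10 ± 0.21, beside 2.89 ± 0.31 for the phytyltransferase-like gene. The geranylgeranyl pyrophosphate synthase-like gene Glyma01g38480, of the enzyme that makes the precursor of the phytyl chain, had 0.04 ± 0.19. Glyma01g43630, similar to the magnesium chelatase subunit CHLD of chlorophyll synthesis, had the largest change of the 4, with -0.62 ± 0.17. Its values were -0.37, -0.18 and -0.41 in drought plants, against 0.18, 0.47 and 0.25 in well-watered plants, and it passed the adjusted p (limma, 0.025) without reaching 2-fold.

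Of 8 genes for aldehyde detoxification, which deal with products such as those of lipid peroxidation, 1 was called higher and none lower. Glyma01g03820, similar to the mitochondrial aldehyde dehydrogenase ALDH2B7, had 0.60, 0.85 and 1.25 in drought plants 11, 12 and 13, against -0.60, -0.88 and -1.07 in well-watered plants 1, 3 and 4. It rose by 1.75 ± 0.21 (SE; limma, adjusted p = 0.000302), the largest rise among the 47 genes. The 4 aldo/keto reductase genes had log2 changes between -0.02 and 0.66 and were not called. The glyoxalase I-like gene Glyma01g34800 had -0.88 ± 0.26, below 2-fold, and was called lower without well-watered plant 3 and without drought plant 12.

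**Figure D3:**
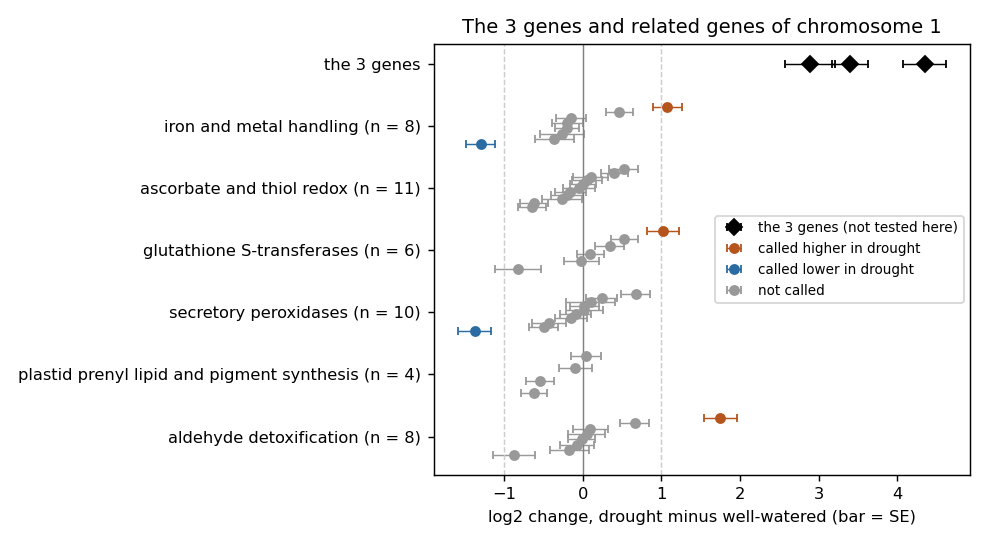
Log2 change, drought minus well-watered, with SE (horizontal axis), of the 3 genes (black diamonds) and of 47 related genes of chromosome 1 in 6 lists. Brown points were called higher, blue points lower and grey points were not called, and dashed lines mark 2-fold. The list genes lie between -1.38 and 1.75, and the 3 genes between 2.89 and 4.35.

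Genes next to the 3 along chromosome 1 were taken from the order of the identifiers, with 5 on each side and 30 in all. Of these 3 were called higher and 2 lower in drought leaves, beside 4.24% called higher and 4.46% called lower of all chromosome 1 genes. Of the 10 around the ferritin gene none was called higher, and all 10 had negative log2 changes, several of them close to none. Over all probe sets 34780 of 66184 had positive changes. The groups did not overlap in 3 of the 10, beside 36% of all probe sets. The second gene after the ferritin gene, Glyma01g31320, is similar to Arabidopsis AT2G38310, which encodes the abscisic acid receptor PYL4. It had -1.84, -2.05 and -2.74 in drought plants 11, 12 and 13, against 1.84, 2.23 and 2.43 in well-watered plants 1, 3 and 4. Its log2 change was -4.38 ± 0.25 (SE; limma, adjusted p = 4.6e-06), or 20.9-fold lower, the largest fall of any chromosome 1 gene on the array. A change of about the size of the ferritin gene's, in the other direction, thus lay 2 genes away. The third gene before it, Glyma01g31270, similar to a gene for the ribosomal protein S4, had -0.52, -0.80 and -0.94 in drought plants, against 0.88, 1.16 and 0.52 in well-watered plants, and fell by 1.61 ± 0.21 (limma, adjusted p = 0.000421). The other 8 neighbours had log2 changes between -0.57 and -0.01.

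The peroxidase gene had the HMA5-like gene Glyma01g42790 as the fifth gene before it, which is the one called higher among its 10 neighbours. The next gene, Glyma01g42800, also similar to HMA5, had a log2 change of 0.47 ± 0.17 and was not called. The other neighbours with a name, the C2 domain gene Glyma01g42820 and the exostosin family gene Glyma01g42830, had -0.44 ± 0.16 and -0.04 ± 0.23. No neighbour had a log2 change above the 1.07 of Glyma01g42790, beside 3.40 for the peroxidase gene itself. The groups did not overlap in 6 of these 10 neighbours, beside 36% of all probe sets. Of all chromosome 1 genes 4.24% were called higher.

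Around the phytyltransferase-like gene the groups did not overlap in 4 of 10 neighbours, beside 36% of all probe sets. Of all chromosome 1 genes 4.24% were called higher and 4.46% lower. Among the 10 neighbours of the phytyltransferase-like gene 2 were called higher and none lower. They were the 2 genes directly after it, Glyma01g33080 and Glyma01g33090, which the files used here do not name and which are singled out after their values were seen. Glyma01g33080 had 0.75, 0.64 and 1.26 in drought plants 11, 12 and 13, against -0.64, -1.67 and -0.98 in well-watered plants 1, 3 and 4. It rose by 1.98 ± 0.27 (SE; limma, adjusted p = 0.00066). Glyma01g33090 had 0.77, 0.49 and 0.90 in drought plants, against -0.49, -0.64 and -0.63 in well-watered plants, and rose by 1.30 ± 0.17 (limma, adjusted p = 0.000521). In both, drought plant 13 was the highest and drought plant 12 the lowest of the drought group, as in the phytyltransferase-like gene itself. In the well-watered group the order differed, since plant 1 was the highest for both but the lowest for the phytyltransferase-like gene. A link between these genes was not tested. Among the named neighbours, the zinc finger gene Glyma01g32990 had 0.60 ± 0.18, the F-box gene Glyma01g33110 had 0.23 ± 0.23 and Glyma01g33120, similar to the cytochrome P450 gene CYP714A1, had -0.36 ± 0.18, and none of these was called.

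**Figure D4:**
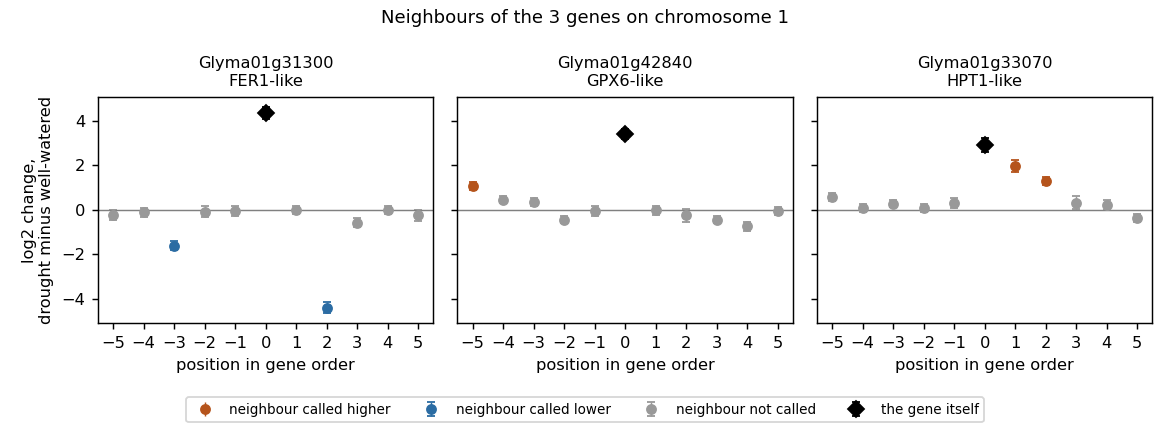
Log2 change, drought minus well-watered, with SE (vertical axis), of each of the 3 genes (black diamond, position 0) and of the 5 array genes on each side in the order of their identifiers (horizontal axis). Brown points were called higher, blue points lower and grey points were not called. The log2 change of -4.38 at position 2 lies beside the ferritin gene, and the rises of 1.98 and 1.30 follow the phytyltransferase-like gene.

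Genes with a pattern like that of the 3 were looked for among the 1760 genes with a name at hand, of which 1606 lie on chromosome 1, by Pearson's r over the 6 arrays, which takes no account of the size of a change. The closest genes given here hold only within these 1760. For the ferritin gene they were Glyma01g36850, similar to the ubiquitin ligase subunit gene ASK2, with r of 0.997 and a log2 change of 0.63, GmNAC127 (Glyma16g26740), a transcription factor gene, with 0.996 and 4.30, and Glyma01g32690, similar to CAD1, with 0.996 and 1.03. GmNAC127 was the only 1 of these whose change was of like size. Its values lay between 1.62 (plant 12) and 2.40 (plant 13) in drought leaves, against -1.62, -2.48 and -2.57 in well-watered plants 1, 3 and 4. Drought plant 12 and well-watered plant 1 thus stood nearest to the other group, as they did for the ferritin gene. GmNAC127 was picked by its r over these same values, so this likeness is no separate result.

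For the peroxidase gene the closest were Glyma01g29170, similar to the receptor kinase gene ARK3, with r of 0.997 and a log2 change of 1.54, Glyma01g26840, similar to a photoassimilate-responsive gene, with 0.996 and 1.65, and Glyma01g27000, similar to an Arabidopsis gene of unknown function, with 0.996 and 2.09. For the phytyltransferase-like gene they were the disease resistance-like genes Glyma01g37620, with r of 0.996 and a log2 change of 0.73, and Glyma01g03920, with 0.992 and 1.68, and the auxin-responsive family gene Glyma19g44810, with 0.992 and 0.92. Over all 66184 probe sets, 158 had an r over 0.99 with the ferritin gene, 266 with the peroxidase gene and 133 with the phytyltransferase-like gene, and 3.85%, 4.68% and 3.36% had an r over 0.95 in the same order of genes. Likeness was also measured by the distance between the 6 values, which does count size. By distance GmNAC127, which came after Glyma01g36850 by r, was first for the ferritin gene. GmNAC085 (Glyma12g22880) and GmNAC101 (Glyma13g35550) followed. The paper lists all 3 of these NAC genes as upregulated by drought in R2 leaves. Few of the genes searched lie off chromosome 1, and these NAC genes were already known to rise. Their nearness to the ferritin gene is therefore no separate result. For the peroxidase gene the distance gave first Glyma01g44930, similar to the hexose transporter gene STP13. It had 1.54, 1.60 and 1.75 in drought plants, against -1.54, -1.78 and -2.07 in well-watered plants.

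Leaf identity could not be checked by level, since the values are centred. The 2 photosynthetic genes taken as leaf markers passed the adjusted p without reaching 2-fold, with log2 changes of -0.81 ± 0.17 for Glyma01g28810, similar to the light-harvesting gene LHCB4.2, and -0.95 ± 0.16 for Glyma01g38750, similar to PSBO-2 of photosystem II (SE; limma, adjusted p = 0.00647 and 0.00254). Their part in the changes of the 3 genes was not tested.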

How the data were processed

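Leaf RNA was measured on Affymetrix Soybean Gene ST arrays. The deposited log2 values were made by the authors with gene-level RMA without normalization in Affymetrix Expression Console and shifted to the 75th percentile of each array in GeneSpring. As read from the values, each probe set also has a median of 0 across the 6 arrays, so absolute signal is lost and no filter on dim probe sets could be applied. A deposited table of the authors' fold changes and p-values was used only for its gene identifiers.

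The values were used as deposited. The comparison used lmFit and eBayes of limma 3.58.1 (R 4.3.3) with a single term for treatment. P-values of all 66184 probe sets were adjusted by Benjamini-Hochberg, and a probe set was called where it passed 0.05 and changed at least 2-fold. The fit was tested on simulated data with each probe set's spread, in which nearly all probe sets were left unchanged. Of 50 probe sets changed 2-fold 7 were called, of 50 changed 4-fold 35, of 50 changed 8-fold 48 and of 50 changed 16-fold 50. In the data 13172 of the 66184 probe sets passed the adjusted p, which makes that threshold less strict than in the simulation. A true change of exactly 2-fold also lies on the fold limit itself. The simulated shares thus do not measure how many changes were missed here. A probe set that was not called may still have changed. The methods' t-test is the equal-variance test named in the study's methods, run on the same values with the same thresholds. Tables and figures were made in Python 3.11.15.

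The 3 genes and the 6 lists were chosen with earlier results of these data known. Text names the 3 genes, each called list gene or else the gene with the largest change, named neighbours and the 3 named genes most like each. Other genes named are examples of their list or were chosen after their values were seen. Names and similarity to Arabidopsis come from the study's descriptions, which call Glyma01g31320 an unknown protein. The name PYL4 for its Arabidopsis match is added background. Of the 59048 genes in the RefSeq table for Glycine_max_v4.0, 0 carried an identifier of the 3 genes or of any other gene on the array. The lack of a match is thus not particular to the 3 genes, and no coordinates are given. Precision is limited by the number of arrays. The alternatives were array medians subtracted, quantile normalization, weights per array, the t-test, calls without a fold limit and each array left out.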

Additional observations from a re-analysis of the deposited data

How the results depend on the processing

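The log2 changes of the 3 genes stayed within 1 pooled SD of the values reported under all 27 combinations tried. These were array medians subtracted, quantile normalization, array weights and each array left out. For arrays left out this was fixed in advance, since with 3 arrays per group dropping 1 cannot move a mean that far. Subtracting array medians moves every gene by the same amount. Array weights were 0.48, 0.34 and 3.96 for well-watered plants 1, 3 and 4, so the weighted well-watered mean rested mostly on plant 4. Drought plants 11, 12 and 13 had weights of 1.11, 1.32 and 1.06. For Glyma01g31300, Glyma01g42840 and Glyma01g33070 the changes were 4.05, 3.18 and 2.73 with quantile normalization and 4.73, 3.66 and 2.69 with array weights. With 1 array left out they were 4.07 to 4.59 for Glyma01g31300, 3.20 to 3.52 for Glyma01g42840 and 2.51 to 3.24 for Glyma01g33070. No paired analysis was possible because no plant number occurs in both groups. A filter on dim probe sets was not run, and signal over background is not known, since the values are centred. Counting identical probe sets once, an alternative chosen after seeing the data, gave 3292 probe sets called higher and 3057 lower.

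Without the fold criterion 6589 probe sets were higher and 6583 lower in drought leaves, against 3295 and 3065 with it. The methods' t-test called 2319 higher and 2041 lower. Without the fold criterion 5 of the 47 list genes were higher and 6 lower, with 1 secretory peroxidase gene and 2 aldehyde genes higher, and 2 redox genes, 1 prenyl lipid gene and 1 aldehyde gene lower. With array weights 1 of the 47 was called higher, and 0 of the metal genes and 0 of the glutathione S-transferase genes. The methods' t-test and quantile normalization each called 0 glutathione S-transferase genes higher. With 1 array left out, 1 to 3 of the 47 were called higher and 2 to 3 lower, with 0 to 1 metal genes and 0 to 1 glutathione S-transferase genes higher, and 0 to 1 glutathione S-transferase genes and 0 to 1 aldehyde genes lower. The fewest higher, 1, were found without well-watered plant 1.

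Of the 3 closest genes by Pearson's r, 1 was kept by distance for the ferritin gene, 0 for the peroxidase gene and 0 for the phytyltransferase-like gene. With 1 array left out 0 to 2 were kept for the ferritin gene, 0 to 2 for the peroxidase gene and 0 to 1 for the phytyltransferase-like gene.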
